A study of Homo sapiens with 21 samples.

Results

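Islet cells without PAX6 were compared directly with islet cells without PDX1, both carrying the BFP control vector, across all genes. The members were chosen by library name: the 3 libraries labelled PAX6-BFP and the 3 labelled PDX1-BFP, 6 of the 21 libraries in the study. H1, an established line of human embryonic stem cells, was differentiated towards islets for all 6. PAX6-/- cells lack both working copies of PAX6 and PDX1-/- cells lack both working copies of PDX1, as the genotype labels give them. Every culture was dissociated on day 11 for infection with a lentivirus, and cells with BFP were collected by flow sorting on day 18, so the controls carry a vector too. The virus held BFP alone in the 6 libraries compared and in the WT (2 libraries) and ISL1-/- (3 libraries) libraries used beside them. A second vector held ISL1 with BFP, and its PAX6-/- (3 libraries) and PDX1-/- (2 libraries) cells are used at the end. The sources used here do not give the promoter of the vector or how many clones stand behind each genotype. The series calls the libraries biological replicates without naming separate differentiations, so p-values measure the spread between these libraries only.

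PAX6 is a paired-box and homeobox transcription factor that pancreatic endocrine cells need to make their hormones, and mice without it are known for having few glucagon cells and many ghrelin cells. PDX1 is a homeobox factor needed for the pancreas to form and for beta cells to keep their identity and transcribe insulin. The islet holds beta cells that secrete insulin, alpha cells that secrete glucagon, delta cells that secrete somatostatin, gamma cells that secrete pancreatic polypeptide and, in development, epsilon cells that secrete ghrelin. Stem cell differentiations also give cells like the serotonin-producing enterochromaffin cells of the gut.

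The 6 libraries held 46.2 to 58.4 M (1e6) counts, and 33112 to 35322 genes had at least 1 count. Mitochondrial genes took 1.28% to 1.42% of the counts in PAX6-/- and 1.39% to 1.84% in PDX1-/-, and the 50 most abundant genes took 10.5% to 11.9% against 13.9% to 15.3%. As a check of the labelled tissue, the endocrine marker CHGA was at 15191 to 48918 CPM (counts per 1e6 counts) in the 6 libraries, while IAPP, the beta cell hormone amylin, was at 0.364 and 0.408 CPM on average in PAX6-/- and PDX1-/-. These are bulk libraries, in which fewer cells of a type and less RNA per cell cannot be told apart.

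The edited genes were examined first, and neither transcript level separated the genotypes by the test. PAX6 (ENSG00000007372.25, GRCh38 chromosome 11, 31784779 to 31817961, minus strand) was at 143, 99.5 and 166 CPM in the PAX6-/- libraries and at 98.6, 113 and 117 CPM in the PDX1-/- libraries. The groups overlapped, and the log2 fold change was 0.32 (SE 0.40, adjusted p = 0.837). Its exons share 5241 bases with ELP4 on the other strand, which had 1280 to 2404 counts against 4747 to 8794 for PAX6. PDX1 (ENSG00000139515.6, chromosome 13, 27920000 to 27926313, plus strand) was at 80.3, 63.3 and 81.4 CPM in PAX6-/- and at 103, 116 and 113 CPM in PDX1-/-. Its libraries did not overlap and the PDX1-/- libraries were the higher (log2 fold change -0.56, SE 0.21, adjusted p = 0.178, and 0.0177 in a fit of the 6 libraries alone). Gene counts include transcripts that are made but not translated, so these levels check the labels of neither knockout. ISL1, a LIM-homeobox factor of endocrine cells, was at 192 CPM ± 53.1 (SD, n = 3) in PAX6-/- and 153 ± 20.8 (SD, n = 3) in PDX1-/-, with an adjusted p of 0.78.

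The 2 knockouts differed at 787 of 25884 genes tested, or 3.04%, by edgeR's quasi-likelihood test with Benjamini-Hochberg adjustment at 0.05. Of these, 393 (1.52%) were higher and 394 (1.52%) lower in PAX6-/-. The median size of the log2 fold change among them was 1.61, and 254 differed by more than 2 on that scale. All 787 had no overlap between the 3 and 3 libraries, a property shared by 31.5% of all genes tested. An unadjusted p under 0.05 was reached by 3862 genes. The median log2 fold change over all genes was 0.02. Leaving out PAX6-/- replicate 1, 2 or 3 lowered the number to 467, 402 or 495, and leaving out PDX1-/- replicate 1, 2 or 3 to 510, 343 or 382. In all 6 of these fits 284 genes passed. It was 3074 of 21584 (14.2%) when the 6 libraries were fitted alone, a set that held 772 of the 787 genes.

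**Figure D1:**
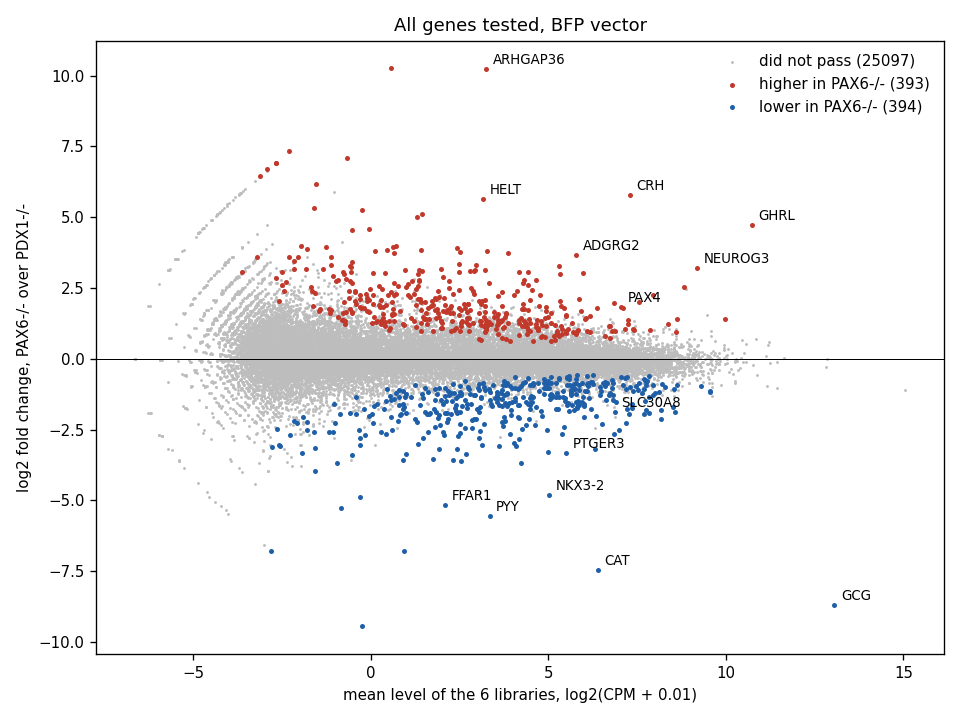
Every tested gene by its mean level over the 6 libraries (x axis, log2 of CPM plus 0.01) and its log2 fold change, PAX6-/- over PDX1-/- (y axis), with red for the 393 genes that were higher, blue for the 394 that were lower and grey for those that did not pass. GCG stands at the lower right at -8.70, and GHRL is the most abundant of the labelled genes above 0, at 4.74.

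Glucagon was abundant in PDX1-/- and nearly missing from PAX6-/-, while ghrelin was higher in PAX6-/- than in PDX1-/-. GCG (ENSG00000115263.15, chromosome 2, 162142882 to 162152404, minus strand), which encodes glucagon, was at 29.1, 15.7 and 77.9 CPM in PAX6-/- and at 14966, 19603 and 16280 CPM in PDX1-/-. Even the highest PAX6-/- library lay far below the lowest PDX1-/- library, and GCG fell by 8.70 (log2, with SE 1.13 and adjusted p = 0.000264), 414.5-fold between the means. In WT with BFP it was at 36246 and 51317 CPM, above all 6 libraries. ISL1-/- with BFP was low in GCG as well, at 90.9, 74.2 and 85.3 CPM. GHRL (ENSG00000157017.16, chromosome 3, 10285666 to 10292947, minus strand), which encodes the stomach and epsilon cell hormone ghrelin, was at 3481, 2519 and 3773 CPM in PAX6-/- and at 138, 145 and 83.4 CPM in PDX1-/-. It rose by 4.74 (SE 0.61, adjusted p = 0.000239), 26.7-fold between the means, with no overlap. WT held 74.6 and 83.6 CPM, near the lowest PDX1-/- library. GHRL shares 288 exon bases with the antisense gene GHRLOS, which had at most 95 counts.

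To show the regions from which these hormone genes are read, the 250 bases before each start are printed 5′ to 3′ on the gene's strand, from RefSeq on GRCh38.p14, with TAAT and ATTA in capitals. These 4 letters are the core that homeobox proteins are known to contact, and the match is a description of letters and not of binding. GCG, at chr2:162152248-162152497 on the minus strand, holds 2 matches, and 27.6% of promoters hold as many. GHRL, at chr3:10292948-10293197 on the minus strand, holds 0. The windows of PYY, a hormone gene that was lower in PAX6-/-, and of NEUROG3, which was higher, were also searched. They hold 0 as well and are not printed, so matches did not follow the direction of change in the genes searched. At least 1 match of either word, which are each other's reverse complement so that both strands are covered, was found in 47.4% of 35116 such windows.
GCG: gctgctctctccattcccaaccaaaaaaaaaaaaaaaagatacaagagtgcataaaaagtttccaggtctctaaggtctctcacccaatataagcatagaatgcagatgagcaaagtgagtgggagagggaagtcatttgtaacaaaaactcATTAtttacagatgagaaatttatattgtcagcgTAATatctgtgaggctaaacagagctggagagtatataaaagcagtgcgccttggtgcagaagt
GHRL: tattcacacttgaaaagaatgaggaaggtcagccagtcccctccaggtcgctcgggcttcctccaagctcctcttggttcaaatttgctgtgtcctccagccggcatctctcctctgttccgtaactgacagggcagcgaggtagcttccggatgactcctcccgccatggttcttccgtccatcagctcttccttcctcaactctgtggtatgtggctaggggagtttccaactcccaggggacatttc

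Insulin was low in both knockouts, less so without PAX6. INS was at 938, 803 and 637 CPM in PAX6-/- and at 186, 163 and 87.5 CPM in PDX1-/-, against 7185 and 5651 CPM in WT. The knockouts did not overlap, but the log2 fold change of 2.45 (SE 0.90) had an adjusted p of 0.182 in the main edgeR fit. It was 0.000511 in the fit of the 6 libraries alone, 0.00225 with a replicate block by description number and 6.89e-05 by limma voom. INS did not pass with a block by title number. It passed in 0 of the 6 fits that left out 1 library, with an adjusted p up to 0.464 without PDX1-/- replicate 3. SST, which encodes somatostatin, was at 10.9, 4.66 and 16.7 CPM against 26.3, 26.2 and 7.02 CPM, and the groups overlapped (adjusted p = 0.696). PPY, which encodes pancreatic polypeptide, had 1, 2 and 5 counts in PAX6-/- and 80, 90 and 65 counts in PDX1-/-, and its log2 fold change was -4.88 (SE 1.08, adjusted p = 0.0179). This low-level gene passed in 2 of the 6 fits that left out 1 library, with an adjusted p up to 0.102 without PAX6-/- replicate 2. PYY, the related gut hormone peptide YY, was at 0.415, 0.25 and 0.586 CPM against 18.2, 23.9 and 17.5 CPM and fell by 5.57 (SE 0.97, adjusted p = 0.00299). With BFP, ISL1-/- held 0.831 CPM of PYY on average and WT 91.8 CPM. Of the 6 islet hormone genes, 1 was higher (GHRL) and 2 were lower (GCG, PPY), with a list median of -0.53 against 0.02 for all genes. For this and every list count below, the shares over all genes tested were 1.52% higher and 1.52% lower.

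Among 18 gut and neural peptide genes, 1 was higher (CRH) and 2 were lower (PYY, NPW), with a median of -0.07. CRH, the corticotropin-releasing hormone, was at 319.6, 228 and 383 CPM in PAX6-/- and at 5.73, 7.68 and 3.37 CPM in PDX1-/-. It rose by 5.79 (SE 0.85, adjusted p = 0.000634), 55.5-fold between the means, and stood at 24.04 and 26.2 CPM in WT. NPW, a neuropeptide precursor, was at 11.9 CPM ± 2.27 (SD, n = 3) against 34.4 ± 5.75 (SD, n = 3) and passed in 4 of the 6 fits that left out 1 library, with an adjusted p up to 0.0888 without PAX6-/- replicate 2.

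**Figure D2:**
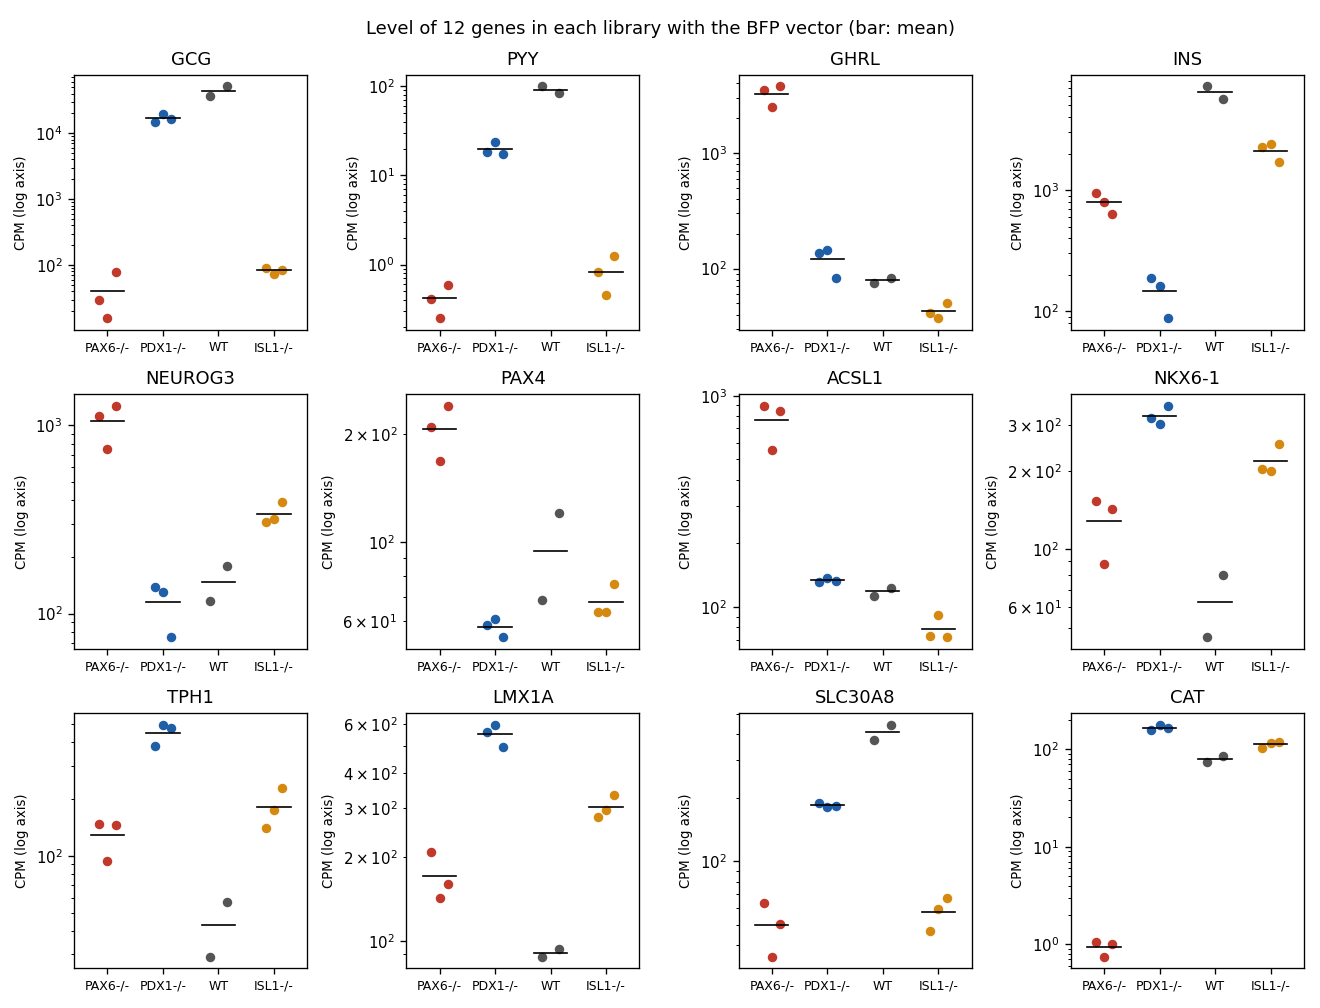
The level of 12 genes in each library with BFP, in CPM on a log axis, for PAX6-/- (3 libraries), PDX1-/- (3), WT (2) and ISL1-/- (3), with a bar at each mean. By mean, PAX6-/- lies lowest for GCG, PYY and CAT and highest for GHRL, NEUROG3 and PAX4, and PDX1-/- lies highest for NKX6-1, TPH1 and LMX1A.

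More beta cell genes passed as lower than as higher in PAX6-/-. Of 17 tested, 5 were lower (NKX6-1, G6PC2, SLC30A8, MNX1, LMO2) and 1 was higher, with a median of -0.45. SLC30A8, the zinc transporter of insulin granules, was at 63.7, 35.4 and 50.5 CPM in PAX6-/- and at 189, 180.2 and 183 CPM in PDX1-/-, and fell by 1.88 (SE 0.24, adjusted p = 0.000263). G6PC2, the islet glucose-6-phosphatase, had 0 counts in each of the 3 PAX6-/- libraries and 1.29, 2.25 and 1.51 CPM in PDX1-/-, at least 29.2-fold lower when each PAX6-/- library is set to 3 counts (adjusted p = 0.00721). WT held 87.6 and 104 CPM, so both knockouts were far below it. NKX6-1, a homeobox factor of beta cells and their progenitors, was at 153, 87.8 and 143 CPM against 320.0, 302 and 357 CPM, and MNX1, another such factor, at 173, 136 and 149 CPM against 317, 428 and 325 CPM. Neither overlapped, and they fell by 1.35 and 1.22 (adjusted p = 0.0314 and 0.0324). Both were lower still in WT, at 46.0 and 79.6 CPM for NKX6-1 and at 58.4 and 89.3 CPM for MNX1. Neither passed in any of the 6 fits that left out 1 library (adjusted p up to 0.183 without PAX6-/- replicate 2 and 0.164 without PDX1-/- replicate 2), and LMO2 passed in 1, with up to 0.143 without PAX6-/- replicate 2.

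PAX4, a paired-box factor that favours the beta over the alpha cell fate, was the beta cell gene that was higher in PAX6-/-. It was at 211, 168 and 241 CPM against 58.6, 60.6 and 54.0 CPM, without overlap (log2 fold change 1.84, SE 0.27, adjusted p = 0.000627), and WT held 68.6 and 120.5 CPM. The list of 17 alpha cell genes had a median of -0.18. TTR, the transthyretin gene of alpha cells, did not pass, at 1116 and 1463 CPM on average in PAX6-/- and PDX1-/-. Among 12 delta and gamma cell genes 0 passed by edgeR, 2 were higher at an unadjusted p under 0.05, and DESeq2 and limma voom called 0 and 2.

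Part of the epsilon cell list was, like GHRL, higher in PAX6-/- than in PDX1-/-. Of 7 genes, 3 were higher (FRZB, ACSL1, MBOAT4), 0 were lower, and the median was 0.74. ACSL1, which activates long-chain fatty acids, was at 899, 552 and 850 CPM in PAX6-/- and at 131, 137 and 133 CPM in PDX1-/- (log2 fold change 2.52, SE 0.49, adjusted p = 0.0071). FRZB, a secreted WNT antagonist, was at 121, 106 and 110.3 CPM against 22.7, 8.27 and 10.1 CPM (3.03, SE 0.42, adjusted p = 0.00044). Both groups were apart for each gene. In WT, ACSL1 was at 113.1 and 123.5 CPM, near PDX1-/-, while FRZB was at 96.6 and 36.2 CPM, above PDX1-/-. The summed level of the 7 genes was 993 to 1409 CPM in PAX6-/- and 404 to 450 CPM in PDX1-/-. WT, at 1092 to 1203 CPM, lay with PAX6-/- in this sum, and ISL1-/- was at 311 to 373 CPM. MBOAT4, the enzyme that acylates ghrelin, was at 9.63 CPM ± 2.63 (SD, n = 3) against 3.56 ± 0.292 (SD, n = 3), with WT at 3.1 CPM on average. Its value is uncertain, since it shares 323 exon bases with the antisense gene LEPROTL1 at 5547 to 9126 counts and passed in 1 of the 6 fits that left out 1 library (adjusted p up to 0.0926 without PDX1-/- replicate 2).

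Enzymes and a transcription factor of the serotonin pathway were higher in PDX1-/-. Of 10 enterochromaffin genes, 3 passed as lower in PAX6-/- (TPH1, LMX1A, DDC) and 0 as higher, with a median of -0.91, and 8 had all PAX6-/- libraries below all PDX1-/- libraries, against 16.0% of all genes. TPH1, which makes the first and limiting step of serotonin synthesis, was at 148, 94.1 and 145 CPM against 381, 495 and 475 CPM (log2 fold change -1.80, SE 0.46, adjusted p = 0.0383). LMX1A, a LIM-homeobox factor of enterochromaffin cells, was at 209, 143 and 161 CPM against 565, 597 and 496 CPM (-1.69, SE 0.38, adjusted p = 0.0188), and DDC, which makes the amine itself, fell by 0.96 (SE 0.19, adjusted p = 0.00721). FEV, a factor of serotonin cells, was at 863 and 1574 CPM on average and did not pass. TPH1 was at 29.2 and 56.6 CPM in WT, below both knockouts. TPH1, LMX1A and DDC passed in 0, 2 and 5 of the 6 fits that left out 1 library, with adjusted p up to 0.198, 0.105 and 0.0558, each without PAX6-/- replicate 2.

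NEUROG3, the factor that commits pancreatic cells to the endocrine lineage and is normally switched on only briefly, was high in PAX6-/-. It was at 1124, 752 and 1274 CPM in PAX6-/- and at 139, 130.0 and 74.7 CPM in PDX1-/-, without overlap, and rose by 3.20 (SE 0.33, adjusted p = 3.08e-05), 9.17-fold between the means. WT held 117 and 178 CPM, close to PDX1-/-. An antisense gene shares 139 of its exon bases and had 215 to 803 counts, against 3420 to 67363 for NEUROG3. Of 13 endocrine progenitor genes 2 were higher (NEUROG3, SOX11) and 0 lower, and the median was 0.08. Its partners further along the same path did not pass: INSM1 was at 1536 and 3009 CPM on average in PAX6-/- and PDX1-/-, and NEUROD1 at 656 and 920 CPM. Of 15 pancreatic progenitor genes 1 was higher (ONECUT1), with a median of 0.27. SOX11 and ONECUT1 each passed in 1 of the 6 fits that left out 1 library, with adjusted p up to 0.192 and 0.166 without PAX6-/- replicate 2.

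Factors that mark regions of the gut and stomach had a median of 0.91 over 17 genes, with 2 higher (NKX6-3, HOXA3) and 1 lower. The lower gene, NKX3-2, a homeobox factor of foregut mesenchyme and skeleton, was at 2.47, 2.25 and 1.99 CPM in PAX6-/- and at 45.1, 61.4 and 80.4 CPM in PDX1-/-. It fell by 4.80 (SE 0.64, adjusted p = 0.000311), and WT at 1.30 and 1.48 CPM lay with PAX6-/-. HOXA3 shares 455 exon bases with the antisense gene HOXA-AS2 and passed in 0 of the 6 fits that left out 1 library (adjusted p up to 0.212 without PDX1-/- replicate 2). CDX2, an intestinal factor 35 kb from PDX1, was at 83.5 and 77.3 CPM on average and did not pass.

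Outside the islet lists, the smallest adjusted p of all genes tested was that of CAT, which encodes catalase, the enzyme that breaks down hydrogen peroxide. CAT (chromosome 11, 34438934 to 34472060, plus strand) was at 1.06, 0.75 and 1.02 CPM in PAX6-/- and at 157, 178 and 164 CPM in PDX1-/-. It fell by 7.46 (SE 0.39, adjusted p = 1.15e-08), 176-fold between the means, and WT held 74.4 and 84.9 CPM and ISL1-/- 114 CPM on average, so PAX6-/- was the lowest of the 4 genotypes with BFP. The gene lies 2621 kb from PAX6 on the same chromosome. Of the 39 tested genes within 3 Mb of PAX6, 2 were lower (CAT, LMO2) and 0 higher, with a median of 0.10, and of the 55 within 3 Mb of PDX1, 2 were lower (SHISA2, LINC01079) and 0 higher, with a median of -0.10. Over all genes tested, 3.04% passed. SHISA2 and LINC01079 are named here as the genes that passed near PDX1. SHISA2 passed in 0 of the 6 fits that left out 1 library (adjusted p up to 0.124 without PAX6-/- replicate 1).

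The other genes with the largest rise in PAX6-/- began with ARHGAP36. ARHGAP36, a regulator of protein kinase A and Hedgehog signalling, was at 20.7, 10.9 and 25.1 CPM in PAX6-/- and had 0, 0 and 2 counts in PDX1-/-, at least 313-fold higher when each PDX1-/- library is set to 3 counts (adjusted p = 7.67e-07). HELT, a basic helix-loop-helix factor of GABA neurons, was at 18.4, 13.2 and 21.2 CPM against 0.436, 0.554 and 0.0437 CPM (log2 fold change 5.64, SE 0.82, adjusted p = 0.000639). SLITRK6, SV2C and PCP4, which encode a neuronal membrane protein, a synaptic vesicle protein and a calmodulin-binding peptide, rose by 3.82, 3.77 and 3.75. The remaining genes were HAGLR, ADGRG2, MIR4458HG, TMEM132C and C11orf87, with log2 fold changes from 3.27 to 3.90. HAGLR, a long noncoding RNA of the HOXD cluster, shares exon bases with HOXD1 and HAGLROS on the other strand and is uncertain. PCP4 and TMEM132C passed in 4 and 5 of the 6 fits that left out 1 library, with adjusted p up to 0.082 without PDX1-/- replicate 3 and 0.0506 without PDX1-/- replicate 2.

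The largest falls after GCG, CAT, PYY and NKX3-2 included secreted factors and a receptor. GDF6, a growth factor of the BMP family, was at 1.72, 3.73 and 2.74 CPM in PAX6-/- and at 39.9, 35.9 and 29.3 CPM in PDX1-/- (log2 fold change -3.68, SE 0.65, adjusted p = 0.00346). VEGFC, the lymphatic vessel growth factor, was at 1.04, 0.446 and 1.19 CPM against 9.91, 9.81 and 12.7 CPM (-3.60, SE 0.35, adjusted p = 2.23e-05). KCNIP1, a subunit of voltage-gated potassium channels, was at 17.8, 10.3 and 19.1 CPM against 149, 168 and 116 CPM (-3.20, SE 0.40, adjusted p = 0.000224), with WT at 6.53 and 8.49 CPM. None of these overlapped. In ISL1-/- with BFP, GDF6, VEGFC and KCNIP1 were at 17.2, 0.952 and 79.8 CPM on average. IL1R1, the receptor for interleukin 1, RGS7BP, TMEM236 and TINAGL1 had log2 fold changes of -3.07, -3.28, -3.38 and -3.07. In the same order they were at 3.64, 5.96, 1.11 and 2.57 CPM on average in PAX6-/-. ISL1-/- with BFP lay near that, at 5.29, 7.37, 0.773 and 1.82 CPM. TINAGL1 shares 158 exon bases with LINC01226 on the same strand, and how such reads were split is not given in the sources used here.

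Receptors that tune hormone release were among the lists with the most calls. Of 18, 6 were lower (FFAR1, GPR119, ADRB1, PTGER3, CCKBR, INSR) and 1 was higher (FFAR4), with a median of -0.53. The 2 fatty-acid receptors moved apart: FFAR1, which potentiates insulin release, was at 0.104, 0.464 and 0.113 CPM in PAX6-/- and 7.60, 9.83 and 7.45 CPM in PDX1-/- (log2 fold change -5.15, SE 0.74, adjusted p = 0.000589). FFAR4 was at 15.6, 10.1 and 15.3 CPM against 1.45, 1.61 and 1.55 CPM (3.15, SE 0.52, adjusted p = 0.00179). WT had far more FFAR1, at 75.4 and 84.5 CPM, and FFAR4 close to PDX1-/-, at 2.20 and 4.11 CPM. PTGER3, an inhibitory prostaglandin E2 receptor, was at 10.4, 6.02 and 8.32 CPM against 80.5, 69.6 and 97.1 CPM (-3.32, SE 0.32, adjusted p = 2.23e-05), and ADRB1, the beta-1 adrenergic receptor, fell by 3.06 (SE 0.40, adjusted p = 0.000297). GPR119 and INSR passed in 0 of the 6 fits that left out 1 library (adjusted p up to 0.241 without PAX6-/- replicate 2 and 0.21 without PDX1-/- replicate 3).

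Some genes of granules, exocytosis and glucose sensing passed, though most members of each list did not. Over all genes tested, 3.04% passed. Of 14 granin and prohormone processing genes 2 were lower (SCG2, VGF) and 0 higher, with a median of -0.57 and 12 of 14 below 0. The summed level of the 14 genes was 18319 to 31502 CPM in PAX6-/- and 49144 to 55156 CPM in PDX1-/-. With BFP, WT was at 23955 to 29098 CPM and ISL1-/- at 26452 to 36616 CPM, both below PDX1-/-. SCG2, secretogranin II, was at 459 CPM ± 119 (SD, n = 3) in PAX6-/- and 1034 ± 165 (SD, n = 3) in PDX1-/-. CHGA, the granin chromogranin A, was at 22762, 15191 and 26317 CPM against 47477, 48918 and 43324 CPM, and without overlap it did not pass (log2 fold change -1.12, adjusted p = 0.0644). Of 18 exocytosis genes 2 were lower (SYT1, SYT13), with a median of -0.36. Of 17 glucose sensing and excitation genes SLC2A1, the widespread glucose transporter, was higher at 309 CPM ± 36.4 against 154 ± 27.0 (SD, n = 3 each, adjusted p = 0.00453), and KCNK16, an islet potassium channel, was lower at 207 ± 26.8 against 417 ± 33.5 (SD, n = 3 each, adjusted p = 0.00451). Of 11 zinc and metal transport genes 0 passed by edgeR, 1 had an unadjusted p under 0.05, and DESeq2 and limma voom called 0 and 2. SCG2, VGF, SYT1 and SYT13 passed in 4, 1, 3 and 2 of the 6 fits that left out 1 library, with adjusted p up to 0.117, 0.0891, 0.101 and 0.112 (without PAX6-/- replicate 2, and without PDX1-/- replicate 2 for SYT1).

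Axon guidance genes, which islet cells use in migration and clustering, had 4 of 31 higher (PLXNA2, EPHA4, NRP2, SEMA3A) and 1 lower (EFNA5), with a median of 0.20. The guidance ligand SEMA3A was at 165, 142 and 138 CPM against 80.4, 71.0 and 73.8 CPM (log2 fold change 0.98, SE 0.20, adjusted p = 0.0085), and 2 receptor genes of the class 3 semaphorins, PLXNA2 and NRP2, rose by 1.78 and 1.25. EPHA4, an ephrin receptor, was at 81.6, 59.0 and 63.9 CPM against 26.3, 23.9 and 19.0 CPM (1.56, SE 0.21, adjusted p = 0.000275). PLXNA2 and NRP2 each passed in 1 of the 6 fits that left out 1 library, SEMA3A in 5 and EFNA5 in 3, with adjusted p up to 0.133, 0.159 and 0.0568 without PDX1-/- replicate 2 and 0.104 without PAX6-/- replicate 3.

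Of 37 genes of the WNT, BMP, FGF and Notch pathways 4 were higher (HELT, BMPER, SFRP1, SFRP5) and 3 lower, HEY1 and DLL4 among them, with a median of 0.34. Both SFRP genes encode secreted WNT antagonists, and SFRP1 was at 98.5, 79.2 and 99.5 CPM against 40.8, 24.99 and 21.7 CPM (log2 fold change 1.67, SE 0.30, adjusted p = 0.00401). The Notch target HEY1 was at 6.08 CPM ± 0.591 against 17.5 ± 3.32 (SD, n = 3 each, adjusted p = 0.00157) and the Notch ligand DLL4 at 71.1, 47.6 and 64.1 CPM against 156, 152 and 135 CPM. BMPER, SFRP5 and DLL4 passed in 2, 3 and 0 of the 6 fits that left out 1 library, with adjusted p up to 0.11 without PDX1-/- replicate 3 and, without PAX6-/- replicate 2, 0.115 and 0.22.

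Part of the interferon response list, which cells switch on against viruses, was lower in PAX6-/-. Of 15 genes, 5 were lower (IFI6, OAS1, ISG15, IFIT1, IRF7) and 0 higher, with a median of -0.88, and 9 had all PAX6-/- libraries below all PDX1-/- libraries, against 16.0% of all genes. IFI6 was at 181, 129.6 and 173 CPM against 510, 702 and 574 CPM (log2 fold change -1.88, SE 0.36, adjusted p = 0.00636), and WT was at 110.1 and 149 CPM. The RNA sensor OAS1 was at 7.24, 6.28 and 8.83 CPM against 21.9, 20.4 and 23.7 CPM (-1.56, SE 0.20, adjusted p = 0.000273). ISG15 passed in 2 of the 6 fits that left out 1 library (adjusted p up to 0.0949 without PDX1-/- replicate 2). The summed level of the 15 genes was 1275 to 1565 CPM in PAX6-/- and 2365 to 2673 CPM in PDX1-/-. WT, at 2447 to 2597 CPM, and ISL1-/-, at 2346 to 2634 CPM, lay with PDX1-/- in this sum. For IFI6, OAS1, ISG15 and IFIT1 taken singly, WT instead lay nearer PAX6-/-, while ISL1-/- lay nearer PDX1-/-. On average OAS1 was at 7.45 CPM in PAX6-/-, 21.99 in PDX1-/-, 10.54 in WT and 29.83 in ISL1-/-. In the same order ISG15 was at 31.77, 91.79, 42.27 and 87.02 CPM, and IFIT1 at 9.35, 24.31, 9.46 and 23.92 CPM. Every culture had been given a virus, and the cause of these levels was not tested.

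All 16 cell cycle genes had the higher mean in PAX6-/-, but 0 passed by edgeR. The log2 fold changes ran from 0.26 to 1.20 with a median of 0.95, 13 genes did not overlap between the groups (15.4% of all genes were higher in this way), and 12 had an unadjusted p under 0.05. DESeq2 called 4 of them, limma voom 12 and the fit of the 6 libraries alone 11. Over all genes these settings called 1496, 3917 and 3074. The summed level of the 16 genes was 740, 1065 and 594 CPM in the PAX6-/- libraries and 505, 424 and 397 CPM in the PDX1-/- libraries. Of these, PAX6-/- replicate 2 was the highest. With BFP, WT at 906 and 615.5 CPM lay within the PAX6-/- range, and ISL1-/- was at 949 to 1336 CPM. PDX1-/- was thus the lowest of the 4 genotypes in this sum.

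Markers of other cells that a sorted culture could hold were measured beside these groups, and their part in the results was not tested. Of 12 mesenchyme and vessel markers 0 passed by edgeR, 1 had an unadjusted p under 0.05, and DESeq2 and limma voom called 0 and 1. Their summed level followed single libraries and not genotype, at 196, 931 and 927 CPM in PAX6-/- and at 820, 111 and 99.9 CPM in PDX1-/-. PECAM1, a defining vessel marker, was at or near 0 in both groups, at 0.00692 CPM on average. Of 11 acinar and duct markers 2 were higher, KRT19 at 1449 CPM ± 218 against 554 ± 50.6 and SPP1 at 10.5 ± 2.65 against 4.34 ± 0.652 (SD, n = 3 each), and the list's summed level was 1361 to 1766 CPM against 589 to 701 CPM. KRT19 and SPP1 passed in 0 and 1 of the 6 fits that left out 1 library (adjusted p up to 0.181 without PDX1-/- replicate 3 and 0.138 without PAX6-/- replicate 2). Among 12 neural and glial markers MAP2 was higher, and the list's sums overlapped at 412 to 687 CPM against 583 to 688 CPM. Of 11 liver and gut epithelium markers LGR5 was higher and TFF3 lower, with sums of 2703 to 3484 CPM against 1992 to 2287 CPM. MAP2, LGR5 and TFF3 passed in 1, 2 and 5 of the 6 fits that left out 1 library, with adjusted p up to 0.131, 0.104 and 0.0558 (without PDX1-/- replicate 2, and without PAX6-/- replicate 2 for TFF3). Of 6 pluripotency markers and 16 folding and stress genes 0 passed by edgeR, 2 and 2 had an unadjusted p under 0.05, DESeq2 called 1 and 0, and limma voom 3 and 4.

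**Figure D3:**
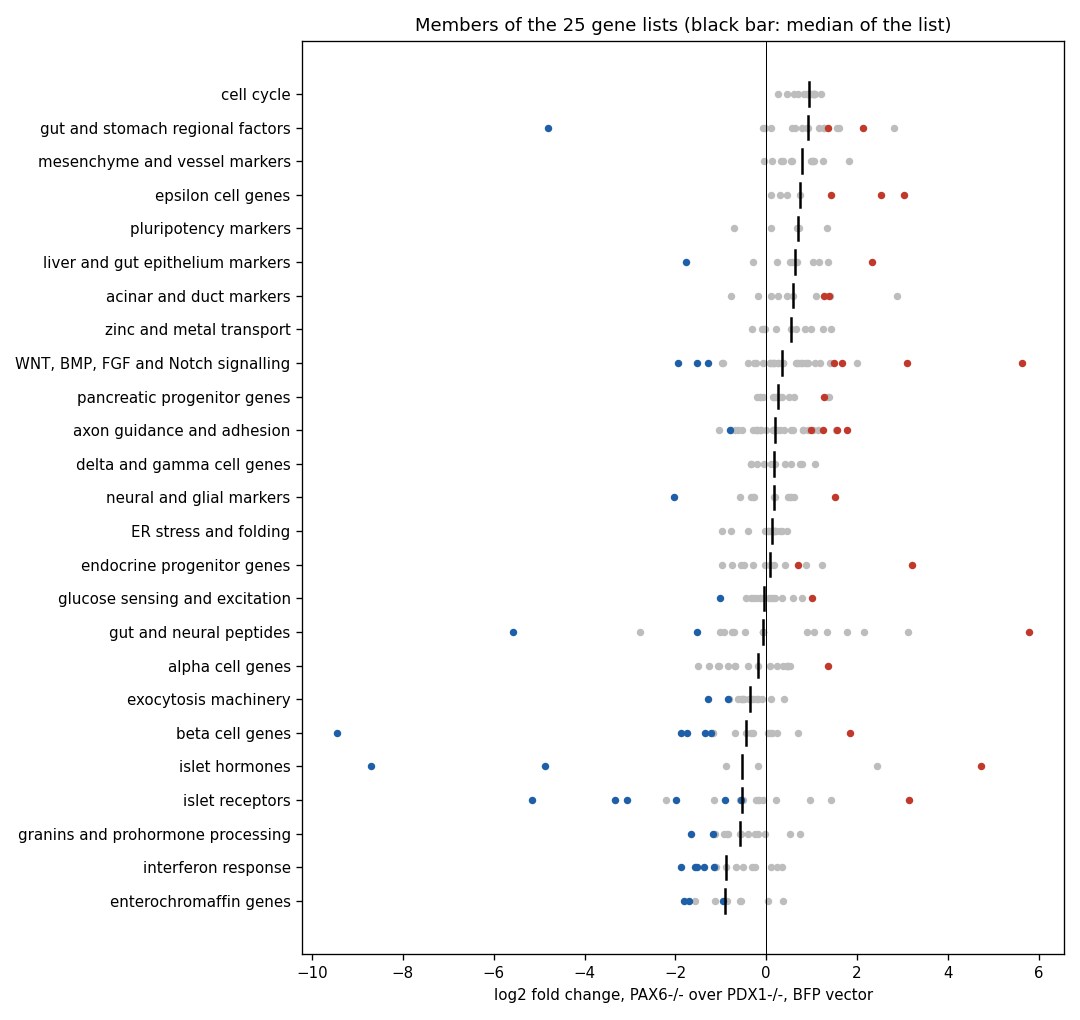
The members of the 25 gene lists by log2 fold change, PAX6-/- over PDX1-/- with BFP (x axis), 1 row per list, with a black bar at each list's median, red or blue where a gene passed as higher or lower and grey where it did not. Medians run from -0.91 for enterochromaffin genes to 0.95 for cell cycle genes, and the widest spread is in the islet hormones, peptides, receptors and beta cell genes.

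The same genotypes with the ISL1 vector gave a separate set of libraries. Libraries of PAX6-/- replicate 3 and PDX1-/- replicate 4 with that vector stand apart, with 3.16% and 3.84% mitochondrial counts. Their 50 most abundant genes took 16.9% and 27.6% of the counts. In log2 CPM, this PDX1-/- replicate 4 correlated at 0.909 with PDX1-/- replicate 2 of the same vector. It correlated at 0.913, 0.916 and 0.9 with PDX1-/- with BFP, and at 0.946 and 0.945 with WT with BFP. With PAX6-/- replicate 3 of the same vector the value was 0.948. The cause was not tested. In these libraries 636 of 25884 genes passed (2.46%), 132 higher (0.51%) and 504 lower (1.95%) in PAX6-/-. Of the 787 genes that passed with BFP, 700 (88.9%) had the same sign there, against 59.7% of all genes tested, 214 passed in the same direction and 3 in the opposite one (SPP1, TDO2, SERPINA4). Set against each PDX1-/- library alone, the share of the 787 with the same sign was 90.2% for replicate 2 and 77.1% for replicate 4. The count of 636 became 280, 427 and 3042 without PAX6-/- replicates 1, 2 and 3, 7629 and 395 without PDX1-/- replicates 2 and 4, and 0 when only those 5 libraries were fitted, where 796 genes had an unadjusted p under 0.05, DESeq2 on all libraries called 1167 and limma voom 7.

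GCG was at 32.0, 28.1 and 339 CPM in PAX6-/- with the ISL1 vector and at 11660 and 106084 CPM in PDX1-/- (log2 fold change -8.79, adjusted p = 0.00055). GHRL was at 2481, 1933 and 15335 CPM against 198 and 276 CPM (4.80, adjusted p = 0.00169), and NEUROG3 at 663, 584 and 1338 CPM against 183 and 147 CPM (2.38, adjusted p = 0.00209). CAT stayed near 0, at 0.601, 0.572 and 1.41 CPM against 131 and 56.3 CPM (-6.78, adjusted p = 5.21e-08). For these 4 genes the groups did not overlap with either vector. INS lay far apart in the PDX1-/- libraries, at 164 CPM in replicate 2 and 25612 CPM in replicate 4, with 699.5, 970 and 2787 CPM in PAX6-/-. Of the 66 named genes that passed with BFP, 64 had the same sign and 40 passed in the same direction. The difference itself changed with the vector at 55 genes (0.212%), 54 lower (0.209%) and 1 higher (0.00386%), and at 1 named gene, SPP1.

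**Figure D4:**
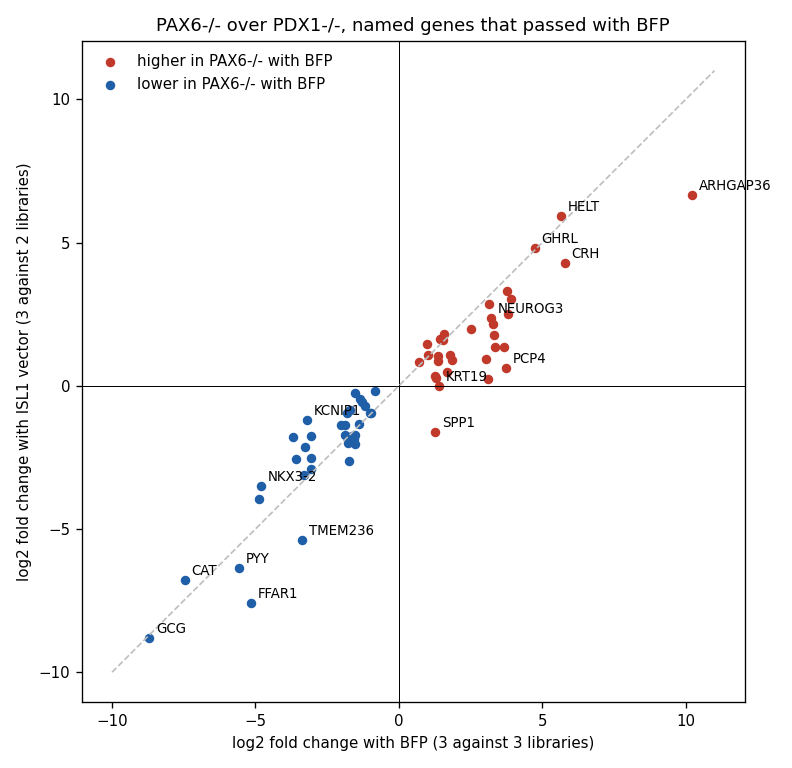
Log2 fold change, PAX6-/- over PDX1-/-, of the 66 named genes that passed with BFP, measured with BFP (x axis) and in other libraries with the ISL1 vector (y axis), with a dashed line where both are equal. GCG, CAT, PYY and GHRL lie near the line, and SPP1 lies on the other side of 0, at 1.27 with BFP and -1.60 with the ISL1 vector.

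To place the 787 genes, each was set on a scale from 0 at the PDX1-/- mean to 1 at the PAX6-/- mean of log2 CPM, with BFP. WT had a median position of 0.63. It lay beyond PAX6-/- for 204 genes, between the knockouts and nearer PAX6-/- for 260, nearer PDX1-/- for 197 and beyond PDX1-/- for 126, so the members split over all 4 arrangements. Among the genes above, WT lay beyond PDX1-/- for GCG, FFAR1, G6PC2 and GHRL, between and nearer PDX1-/- for CRH, between and nearer PAX6-/- for ADGRG2, and beyond PAX6-/- for NKX3-2, KCNIP1 and TPH1.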

How the data were processed

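RNA from sorted BFP-positive cells was measured in 21 libraries (SMART-Seq v4 and KAPA EvoPrep, NovaSeq X, per the labels' protocols). The authors deposited raw read counts per gene in the layout of featureCounts, per the file headers, and the submitters' processing notes name STAR 2.7.11b, featureCounts 2.1.1 and GRCh38. The strand setting and the treatment of multi-mapping reads are not given in the sources used here. Of 62700 entries 62699 were used, and ANK2, whose entry is broken over several lines, was left out. Symbols came from a name table that covered every ID. No replicate pair agreed within sampling noise.

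Libraries were grouped by title and description. Counts of all 21 libraries (36.8 to 60.2 M) were fitted in 8 groups by edgeR 4.0.16 (quasi-likelihood, TMM, filterByExpr, minimum count 10, minimum total 15) in R 4.3.3, with Benjamini-Hochberg adjustment over 25884 genes and a threshold of 0.05. Fold changes use a prior count of 0.125, CPM values the TMM library size. Lower bounds of a fold use a floor of 3 counts per library where no library of a group exceeds it. The script was tested on simulated data. Alternatives used DESeq2 1.42.0, limma 3.58.1 voom, no filter, a replicate block, fewer samples and each library left out.

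Named genes are the edited and hormone genes, the 12 largest rises and 12 largest falls (adjusted p under 0.05, 10 CPM or more on average in the higher group, no overlap, no clone, LINC, antisense or readthrough names), and in each of 25 lists up to 4 members that passed at an average of 5 CPM or more. Chosen after seeing their values were: list members given as counts or means, CHGA, CDX2, SHISA2, LINC01079, and the genes of the closing section. The members and lists were chosen with earlier results of these data known. The results of some genes are not reported here.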

Additional observations from a re-analysis of the deposited data

Results flagged for a closer look

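Of the 55 genes at which the difference between PAX6-/- and PDX1-/- changed with the vector, by edgeR's quasi-likelihood test of the difference itself, 4 are described. TDO2, SERPINA4 and IGF2 were chosen for this after their values were seen. SPP1, which encodes the secreted protein osteopontin, had a difference with the ISL1 vector minus that with BFP of -2.87 on the log2 scale (adjusted p = 0.0112). It was at 8.11, 13.3 and 9.99 CPM in PAX6-/- and 4.57, 3.61 and 4.85 CPM in PDX1-/- with BFP, and at 19.8, 19.6 and 14.4 CPM against 32.2 and 76.6 CPM with the ISL1 vector, so both pairs of groups were apart in opposite orders. TDO2, which opens the tryptophan ring in liver, differed by -4.28 (adjusted p = 0.00771), with 29.9, 29.5 and 37.5 CPM against 72.7 and 295 CPM with the ISL1 vector and 25.8, 40.6 and 25.4 CPM against 14.8, 6.07 and 6.05 CPM with BFP. SERPINA4, which encodes kallistatin, differed by -3.00 (adjusted p = 0.0294) at levels of 0.478 to 5.07 CPM in these 11 libraries. IGF2, the imprinted growth factor, differed by -2.02 (adjusted p = 0.00514): it was at 203, 217 and 222 CPM against 70.9, 54.8 and 57.9 CPM with BFP, and at 234, 230.0 and 293 CPM against 328 and 259 CPM with the ISL1 vector, where its log2 fold change was -0.22. Each of these rests on 2 PDX1-/- libraries with the ISL1 vector. Of these, PDX1-/- replicate 4 stands apart in its mitochondrial share, its INS level and its most abundant genes. It also correlated more with WT with BFP (0.946 and 0.945) than with PDX1-/- replicate 2 (0.909).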

How the results depend on the processing

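Each count of genes that passed depends on the fit. With BFP the count of 787 was 801 with DESeq2 size factors, 787 without the filter on low counts, 1496 by DESeq2, 3917 by limma voom with quality weights, 3074 with the 6 libraries alone and 3785 with the 11 BFP libraries, an alternative chosen after seeing the data. Leaving out 1 library gave 343 to 1581. The upper values came without ISL1-vector libraries: 1486 without PAX6-/- replicate 3 and 1581 without PDX1-/- replicate 4. With the ISL1 vector the count of 636 was 1167 by DESeq2, 7 by limma voom and 0 with the groups alone, and 280 to 7629 with 1 library left out. The 55 genes whose difference changed with the vector became 286 without the filter, 404 by DESeq2, 0 by limma voom (897 at an unadjusted p under 0.05) and 0 with the groups alone (1143), and 9 to 4290 with 1 library left out, 4290 being without PDX1-/- replicate 2. Replicate numbers were not used as pairs in the main fit. Deviations of same-numbered PAX6-/- and PDX1-/- libraries correlated at -0.36, -0.37 and -0.18, and no library correlated best with its own number. With 3 libraries per group, these correlations cannot settle whether same-numbered libraries shared a differentiation. With a replicate block by description number the counts were 1988, 377 and 52, by title number 912, 520 and 13, and with the groups alone and a block 1770 with BFP and 0 (699 unadjusted) for the change with the vector; the ISL1-vector groups alone with a block had no residual degrees of freedom and were not run. No named gene changed sign in any alternative. Of the 66 named genes that passed with BFP, 43 to 52 still passed with 1 of the 6 libraries left out. SOX11 and SYT13 did not pass without the filter (adjusted p = 0.186 and 0.0943), and INS passed there (0.0292). INS also passed with the 6 libraries alone, with the 11 BFP libraries, by limma voom and with the block by description number. PPY had 1 to 5 counts in PAX6-/-, so few counts stand behind its level there. The causes were not tested.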

Other observations

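Further genes that passed with BFP, chosen after their values were seen, fall outside the lists above. The nicotinic receptor subunits CHRNA3 and CHRNB4, neighbours on chromosome 15, were both higher in PAX6-/-, CHRNA3 at 42.7, 34.1 and 30.5 CPM against 13.2, 8.34 and 4.28 CPM and CHRNB4 at 14.5, 15.6 and 9.74 CPM against 4.78, 3.13 and 1.73 CPM (log2 fold changes 2.06 and 2.05, adjusted p = 0.00784 and 0.0137). PRDM14, known from pluripotent and germ cells, was at 39.2, 24.2 and 33.3 CPM against 4.59, 4.91 and 1.94 CPM (3.08, adjusted p = 0.00678). LYZ, which encodes lysozyme, was higher in PAX6-/- at 234, 225 and 97.8 CPM against 35.6, 46.0 and 59.3 CPM (1.98, adjusted p = 0.00363), with WT at 264 and 236 CPM.

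Lower in PAX6-/- were DUOXA1, the maturation factor of a hydrogen peroxide-producing oxidase, at 0.29, 1.05 and 0.946 CPM against 6.15, 11.4 and 9.86 CPM (log2 fold change -3.57, adjusted p = 0.000622), and TFF1, a mucosal trefoil peptide, at 2.43, 2.43 and 1.95 CPM against 10.4, 14.2 and 12.1 CPM (-2.43, adjusted p = 0.000813). The potassium channel gene KCNJ3 was at 37.04, 24.1 and 30.2 CPM against 131, 158 and 164 CPM (-2.31, adjusted p = 0.00144), and WT lay below both at 12.2 and 18.1 CPM. For each of these genes the PAX6-/- and PDX1-/- libraries did not overlap.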
